A study of Mus musculus with 4 samples.

Results

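Ribosomal protein genes were followed across CD4 T cells of the mouse small intestine. Cells were grouped into gates by their transcript counts of 5 genes, and gates were compared first in all cells and then at matched UMI depth. The members were all genes whose symbol starts with Rps or Rpl, leaving out 10 Rps6k kinase genes and 9 names holding -ps. This gave 86 of 31053 genes, all of them protein coding and spread over 19 chromosomes. They comprised 77 canonical subunit genes (31 of the small and 46 of the large subunit) and 9 paralogs or partner genes. Cells entered the first gate they met: at least 1 UMI (unique transcript count) of Foxp3, of Ccr7, of Il17a or of Ifng, then at least 10 UMIs of Gzma, and otherwise the rest.

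The 4 libraries all came from wild-type C57Bl/6 mice, from lamina propria freed of Peyer's patches and digested with collagenase, and held living cells sorted as CD45+CD3+CD4+7AAD-. They were made with the Chromium 5′ chemistry and formed 1 group, with no treatment or other genotype, so gates were compared within libraries. The labels do not say that each library is 1 mouse; p-values therefore measure the spread between these libraries, which may be technical. Of 22904 barcodes, 21501 were analysed: 1548 in the Foxp3 gate, 610 in the Ccr7 gate, 554 in the Il17a gate, 6513 in the Ifng gate, 1730 in the Gzma gate and 10546 in the rest. The gates were not distinct classes. A later gate was also met by 39.5% of cells in the Foxp3 gate, 18.2% in the Ccr7 gate, 38.6% in the Il17a gate and 23.0% in the Ifng gate.

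The ribosome joins a small subunit, which reads the mRNA, with a large subunit, which forms peptide bonds, and nearly every canonical member is needed in 1 copy per ribosome. Many of these mRNAs begin with a pyrimidine tract at the cap (the TOP motif), through which growth signals and the TOR kinase set how much of them is translated. Naive T cells are small and mostly quiescent, whereas effector T cells make large amounts of secreted proteins.

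RefSeq promoter windows (GRCm38.p6) were matched for 66 of the 86 members. A run of at least 8 pyrimidines (C or T, coding strand) within 30 bases of the start was found in 53.0% of these members against 25.8% of 27025 genes with a window. This search also took in bases before the start, so such a run is not by itself a TOP motif. A C and 4 pyrimidines exactly at the start stood in 21.2% of members against 3.01% of all genes. The start is the one RefSeq annotates, and cap sites were not mapped. A member without the motif here may therefore still be a TOP mRNA. The motif CCGGAA, the core bound by ETS-family factors, stood on either strand of the 300 bases in 54.5% of members against 16.7% of all genes; the searches may overlap. Windows of members on which the results turn follow, as 60 bases from 40 before to 20 after the annotated start, with the longest pyrimidine run in capitals. Rpl13a lies at chr7:45128726-45128785 (minus strand), Rpl28 at chr7:4792925-4792984 (plus), Rpl38 at chr11:114668540-114668599 (plus), Rpl39 at chrX:37085203-37085262 (minus), Rps27 at chr3:90213629-90213688 (minus), Rps27l at chr9:66946046-66946105 (plus) and Rps19 at chr7:24884552-24884611 (plus).
Rpl13a: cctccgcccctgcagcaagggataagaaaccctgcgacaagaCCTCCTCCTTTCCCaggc
Rpl28: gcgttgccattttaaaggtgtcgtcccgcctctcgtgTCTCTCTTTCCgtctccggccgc
Rpl38: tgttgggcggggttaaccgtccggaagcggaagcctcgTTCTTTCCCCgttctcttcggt
Rpl39: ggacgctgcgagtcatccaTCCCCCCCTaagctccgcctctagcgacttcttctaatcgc
Rps27: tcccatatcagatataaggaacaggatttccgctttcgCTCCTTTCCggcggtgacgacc
Rps27l: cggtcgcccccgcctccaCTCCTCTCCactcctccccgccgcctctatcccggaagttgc
Rps19: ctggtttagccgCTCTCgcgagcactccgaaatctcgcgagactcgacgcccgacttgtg
Rpl13a had the longest run of the 7, at 14 bases. The Rps19 window shown had a longest run of 5, and neither of its other RefSeq windows reached 8. GENCODE M21 places the start of Rps19 at chr7:24884371, upstream of these printed windows, so they do not show that its mRNA lacks a tract.

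The libraries held 23918884 to 28783972 UMIs, and median depth was 3629 to 4177 UMIs per cell analysed. The gate genes differ between gates by the rule itself, and their companions did so to unlike degrees. Lef1, a factor of naive T cells, averaged 267 UMIs per 1e+06 in the Ccr7 gate and 19.2 to 56.6 in the others. Cxcr3, listed with Ifng, averaged 241 in the Ifng gate and 250 in the rest. Ctla4, listed with Foxp3, averaged 1930 in the Foxp3 gate and 1677 in the Il17a gate. The summed T cell genes Cd3d, Cd3e, Cd3g, Trac and Cd4 were at 3794 to 5761 per 1e+06 in every gate. Fscn1 and Ccl22, 2 of 3 markers of Ccr7-bearing dendritic cells, were at 0 in the Ccr7 gate. The 3 B cell markers summed to 0 to 29.5 per 1e+06 there, and the plasma cell genes to 67.7 to 1821, with the highest value from 1 library. Pairs of libraries shared 34 to 55 cell barcodes.

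Members of the family made up 22.2% ± 0.855 (SD, n = 4 libraries) of all UMIs. The most abundant was Rps24 (3.04% of the family's UMIs), followed by Rps15a (2.46%), Rpl41 (2.40%), Rpsa (2.30%) and Rps27 (2.14%). Each canonical member was detected in 76.3% to 99.8% of cells, the lowest being Rpl13a. The 5 members with the fewest UMIs were all paralogs or partners: Rpl7l1 (4824 UMIs in 21501 cells), Rps19bp1 (2995 UMIs), Rpl39l (68 UMIs), Rpl10l (1 UMI) and Rpl3l (0 UMIs). The last 3 were too low to test, which left 83 members in the fits.

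The ribosomal share of UMIs was highest in the Ccr7 gate and lowest in the Gzma gate. In libraries 1 to 4 it was 29.2%, 27.2%, 29.7% and 29.9% in the Ccr7 gate against 22.7%, 22.4%, 23.1% and 24.3% in the rest. The difference was 5.90 percentage points ± 0.824 (SD, n = 4). In the Gzma gate the shares were 19.5%, 19.3%, 20.4% and 21.3%, a difference from the rest of -2.99 ± 0.189. Both differences held in every library, and the Ccr7 values did not overlap those of any other gate.

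The other 3 gates lay between, all below the rest in 4 of 4 libraries. The share was 21.4% ± 1.08 in the Foxp3 gate (20.3% to 22.7%), 21.1% ± 0.691 in the Il17a gate (20.5% to 22.1%) and 20.9% ± 0.871 in the Ifng gate (19.9% to 22.0%). Their differences from the rest were -1.74 ± 0.468, -2.07 ± 0.298 and -2.19 ± 0.281 percentage points. Each pair of these 3 gates changed order in 1 of 4 libraries (the Foxp3 gate was lowest in library 1, and the Ifng gate exceeded the Il17a gate in library 3), with mean differences of 0.115 to 0.442 points, whereas each exceeded the Gzma gate in all 4. With 4 libraries an exact two-sided sign-flip permutation test cannot fall below 0.125, so none of these differences could reach 0.05.

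**Figure D1:**
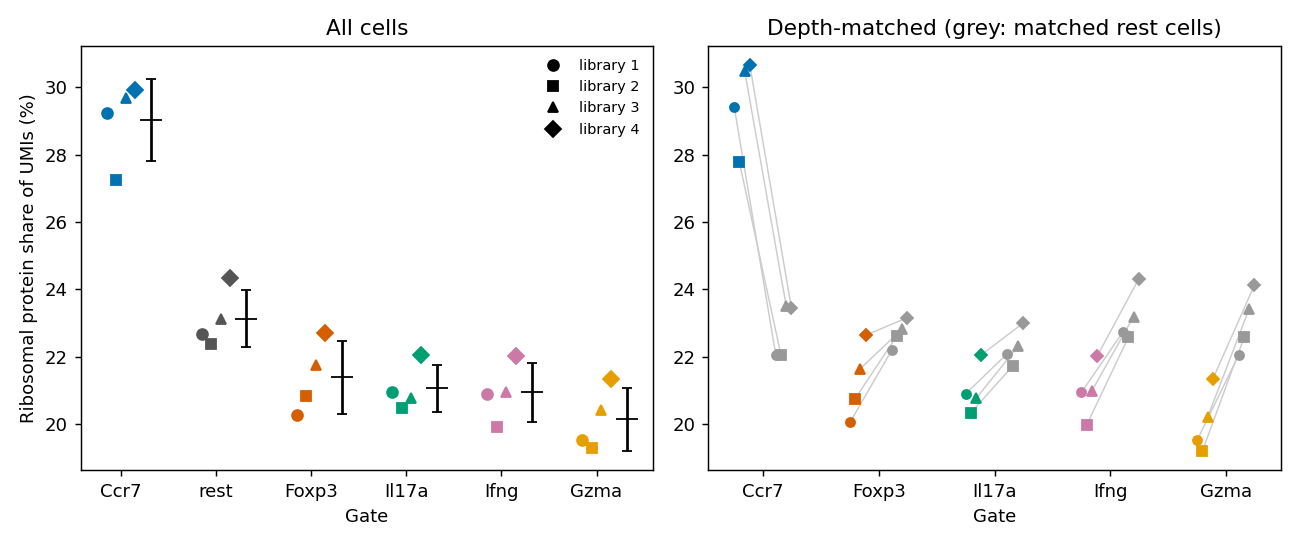
Ribosomal protein share of UMIs (%, vertical axis) by gate, 1 symbol per library; left, all cells with mean and SD (n = 4) as bars; right, each gate beside its depth-matched rest cells in grey, lines joining the same library. The Ccr7 gate lies at 27.2% to 29.9% in all cells, and the other 4 gates lie below the rest in every library.

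The gates differed in depth: the median cell held 5094.5 UMIs in the Il17a gate, 4758 in the Ccr7 gate, 4515.5 in the Foxp3 gate, 3954 in the Ifng gate, 3720 in the rest and 3579.5 in the Gzma gate. In the rest the ribosomal share rose with depth and then fell. It was 17.8% ± 1.66 (n = 4) in cells of 1000 to 2000 UMIs, 24.03% ± 0.769 in cells of 4000 to 6000 and 20.9% ± 0.496 in cells of at least 10000. Across single rest cells below 6000 UMIs, the share correlated with log depth at r = 0.289 to 0.333 over the libraries, and from 6000 UMIs at r = -0.260 to -0.197; the depth is part of both measures, and cells of 1 library share its preparation.

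The share of the Ccr7 gate was above that of the rest in each depth bin with enough cells. It was 33.4% ± 2.09 (n = 4) at 4000 to 6000 UMIs, 28.4% ± 2.22 (n = 3) at 6000 to 10000 and 25.4% at 10000 or more, where only library 1 had 20 cells. The Foxp3 gate stood at 21.8% ± 1.31 at 6000 to 10000 UMIs and 21.9% ± 0.837 at 10000 or more, against 23.5% ± 1.202 and 20.9% ± 0.496 in the rest. Between these bins it was higher in the deeper cells in libraries 1 and 2 and lower in libraries 3 and 4. In the deepest cells its share was above that of the rest in 4 of 4 libraries, and in each shallower bin below it. This was not particular to the Foxp3 gate. In the deepest cells the Il17a gate also exceeded the rest in libraries 1 and 4, the 2 with enough cells (20.6% against 20.5% and 22.3% against 21.5%). The Ifng gate lay above the rest there in libraries 3 and 4 and below it in libraries 1 and 2. Cells with at least 2 UMIs of 5 cycling genes (Mki67, Top2a, Cdk1, Birc5, Stmn1) were 4.44% of rest cells at 4000 to 6000 UMIs and 60.1% at 10000 or more. Detection of these UMIs itself rises with depth, and the part of cycling cells in the lower share of deep cells was not tested.

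**Figure D2:**
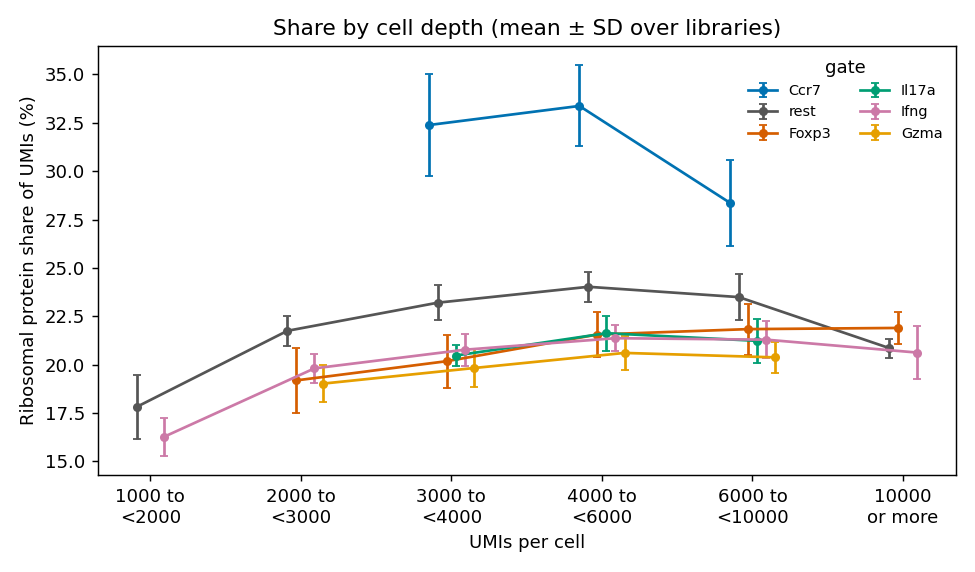
Ribosomal protein share of UMIs (%, vertical axis) in bins of UMIs per cell (horizontal axis), mean and SD over the libraries with at least 20 cells in the bin, for bins with 3 or 4 such libraries. The rest rises from 17.8% to 24.03% and falls to 20.9% in the deepest bin.

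Each gate cell was then paired with an unused rest cell of the same library within 5% of its UMI count, which left 6 to 170 cells per gate unpaired. The Ccr7 gate exceeded its matched rest cells by 7.39, 5.74, 7.00 and 7.22 percentage points in libraries 1 to 4, a mean of 6.84 ± 0.749. The Gzma gate lay lower by a mean of -2.98 ± 0.385 and the Ifng gate by -2.23 ± 0.333. The Il17a difference was -1.27 ± 0.261 after matching, against -2.07 in all cells, but the matched value depended on the setting. The Foxp3 difference was -2.14, -1.86, -1.17 and -0.525 points in libraries 1 to 4, smallest in library 4. All 5 gates kept their direction in 4 of 4 libraries. The matched Il17a difference was -2.17 points in T cells selected by markers, -1.69 without cycling cells, -0.783 in cells meeting exactly 1 gate and -0.644 when cells were paired on UMIs outside the family.

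The Gzma gate has a threshold, and the mean share on its 2 sides was close. Cells with no Gzma UMI outside the first 4 gates had 23.6% ± 0.871 ribosomal UMIs (n = 4), those with 1 to 4 UMIs 22.0% ± 0.838, those just outside the gate (5 to 9 UMIs) 20.9% ± 0.601, those just inside (10 to 14 UMIs) 20.7% ± 0.936, those with 15 to 19 UMIs 20.8% ± 0.960, and those with 20 or more 19.8% ± 1.01.

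The balance of small and large subunit transcripts also differed. UMIs of small subunit members numbered 0.828 ± 0.00215 per large subunit UMI in the rest (n = 4). The ratio was 0.851 ± 0.0103 in the Ccr7 gate, the highest, and 0.788 ± 0.00124 in the Foxp3 gate, the lowest. The Ifng, Gzma and Il17a gates stood at 0.818 ± 0.00338, 0.807 ± 0.00305 and 0.802 ± 0.00280. Each gate differed from the rest in 1 direction in all 4 libraries, and at matched depth the mean differences were 0.0280 in the Ccr7 gate and -0.0374 in the Foxp3 gate.

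Nearly the whole family was higher in the Ccr7 gate. By edgeR's quasi-likelihood test with TMM scaling, a library block and Benjamini-Hochberg adjustment over all genes, 81 of 83 members rose and none fell (12.7% and 10.1% of 9633 genes did). At matched depth 79 rose and none fell (5.8% and 3.31% of 6653 genes), and all 79 were among the 81. The median log2 fold change was 0.49 in all cells and 0.51 matched, against -0.02 and -0.01 over all genes tested. Scaling by library size alone moved the median of all genes by -0.16 in this gate, and 77 members were then called in all cells and 77 matched. The median log2 fold change of the members was then 0.33 in all cells and 0.36 matched, so its size depended on the scaling. Of the members called with TMM only Rpl13a in all cells changed sign, from 0.15 to -0.01.

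Rps19, a small subunit protein whose human counterpart is the gene most often mutated in Diamond-Blackfan anaemia, led the rise. It stood at 37.8, 33.3, 38.0 and 38.9 UMIs per 10000 in libraries 1 to 4 of the Ccr7 gate, against 21.1, 20.2, 21.4 and 23.1 in the rest. The groups did not overlap, and the matched log2 fold change was 0.94 ± 0.0411 (SE; edgeR adjusted p = 1.6e-08). Rps20, a neighbour of Rps3 at the small subunit head, stood at 55.6, 50.1, 60.2 and 55.4 against 35.7, 34.6, 35.5 and 36.4, with a matched log2 fold change of 0.77 ± 0.0492 (adjusted p = 3.1e-07). Rps27rt rose by 0.71 ± 0.148 on the log2 scale, but it shares identical stretches with Rps27.

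At the other end, Rpl27, Rpl38 and Rps12 rose least among members called in both fits, with matched log2 fold changes of 0.26 ± 0.0559, 0.31 ± 0.0392 and 0.35 ± 0.0497. Rpl38, a large subunit protein known from Hox mRNA translation in the embryo, was at 32.2, 35.4, 36.4 and 43.2 UMIs per 10000 in the Ccr7 gate and at 30.4, 36.9, 36.0 and 43.9 in the rest. On that unscaled level the groups overlapped, and libraries 2 and 4 were slightly lower in the gate.

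**Figure D3:**
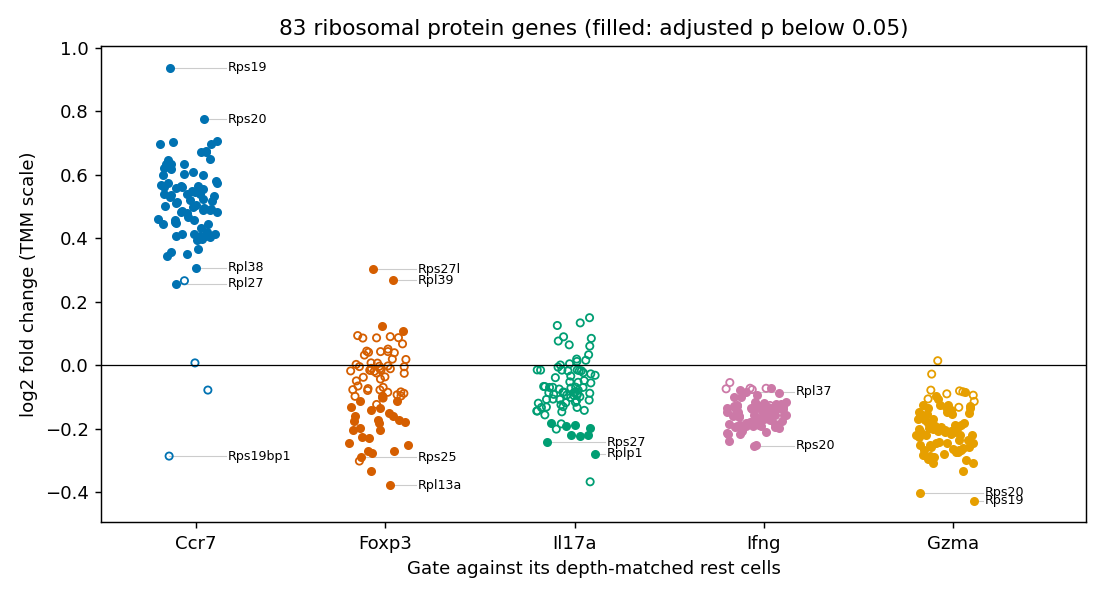
Log2 fold change (TMM scale, vertical axis) of 83 ribosomal protein genes in each gate against its depth-matched rest cells, 1 point per gene, filled where the edgeR adjusted p is below 0.05. In the Ccr7 gate 79 points are filled and above 0, with Rps19 highest at 0.94; in the Ifng and Gzma gates all filled points lie below 0.

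To find members that departed from the family, the same fits were scaled to the summed ribosomal UMIs, so that a gene moving with the family has a log2 fold change of 0. A departure needed an adjusted p below 0.05, a log2 fold change of at least 0.3 and 1 direction in all 4 libraries. It was met by 14 gene and gate pairs (11 genes) in all cells and by 6 pairs (6 genes) at matched depth, and 3 pairs were in both: Rps19 and Rpl7l1 in the Ccr7 gate and Rpl13a in the Foxp3 gate.

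In the Ccr7 gate Rps19 made up 12.9, 12.2, 12.8 and 13.0 of 1000 family UMIs, against 9.32, 9.01, 9.26 and 9.48 in the rest. Within the family its log2 fold change was 0.46 ± 0.0269 in all cells (edgeR adjusted p = 1.4e-12) and 0.41 ± 0.0327 matched (adjusted p = 2.8e-06). In all cells Rps20 (0.31) and the stalk protein gene Rplp0 (0.31) also departed upward, and Rpl38 (-0.32), Rpl13a (-0.34) and Rpl7l1 (-0.43) downward. That is 3 members in each direction, where 2.05% of all genes met the rule upward and 55.6% downward on this scale. Matched, Rps19 alone departed upward (1.32% of genes did) and Rps19bp1 (-0.81), Rpl7l1 (-0.61) and Rps27l (-0.52) downward (56% of genes); these 3 are partners or paralogs, not canonical subunits. For Rps27l the fits differed: in all cells it stood at 0.03 ± 0.106 within the family (edgeR adjusted p = 0.80), with mean levels of 1.31 UMIs per 10000 in the Ccr7 gate and 1.01 in the rest.

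The Ifng and Gzma gates showed the reverse of the Ccr7 gate for most members. In the Gzma gate 66 of 83 members fell and none rose in all cells (6.87% and 7.35% of all genes), and 72 fell and none rose at matched depth (5.34% and 5.98%), with 64 called in both. In the Ifng gate 61 fell and none rose in all cells (4.28% and 4.33% of genes), and 77 fell and none rose matched (6.46% and 6.57%), including all 61. Median matched log2 fold changes were -0.20 in the Gzma gate and -0.14 in the Ifng gate, where the medians of all genes lay near 0. The Ifng count in all cells fell to 37 without library 2 and to 38 without library 4, and to 13 in cells meeting exactly 1 gate, whereas the matched count was 77 in the latter.

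Rps19 and Rps20 again stood at the edge. In the Gzma gate Rps19 was at 15.3, 15.3, 16.6 and 18.1 UMIs per 10000 in libraries 1 to 4, below every value of the rest. Its matched log2 fold change was -0.43 ± 0.0336 (edgeR adjusted p = 8.5e-09), and that of Rps20 was -0.40 ± 0.0284 (adjusted p = 1.8e-09). Rplp1, an acidic protein of the stalk that recruits elongation factors, fell by 0.33 on the log2 scale. In the Ifng gate Rps20, Rpl35 and Rps19 fell by 0.25, 0.25 and 0.24. No member met the departure rule in either gate. On that scale 10.3% of all genes met it upward and 1.63% downward in the Ifng gate in all cells, and 10.4% and 1.95% matched. In the Gzma gate 21.6% and 2.53% did in all cells, and 18.6% and 1.72% matched. Without library 1 Rps27l departed upward in the Gzma gate, by 0.38 in all cells and 0.37 matched; without library 4 it did so in all cells (0.33), and without library 3 Rps19bp1 did (0.40).

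In the Foxp3 gate more members fell than rose, and 65 of 83 log2 fold changes were negative in all cells and 61 matched. In all cells 5 members rose and 30 fell (17.6% and 15% of all genes), and at matched depth 4 rose and 27 fell (15.5% and 12.5%); 2 risers and 17 fallers were called in both. The share that rose was below that of all genes tested in both fits. The count of fallers in all cells was 19 without library 1 and 15 in cells meeting exactly 1 gate; matched risers numbered 8, 1 and 1 without libraries 1, 2 and 3. With library size alone 49 members fell in all cells and 42 matched, and 4 and 2 rose.

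Rpl39, a small protein that lines the exit tunnel of the large subunit, was the riser called in both fits with 1 direction in all 4 libraries. It made up 21.5, 21.7, 22.4 and 23.1 of 1000 family UMIs in the Foxp3 gate against 17.1, 18.2, 18.4 and 20.2 in the rest, and no Foxp3 value reached down to the rest. Its matched log2 fold change was 0.27 ± 0.0309 with TMM (edgeR adjusted p = 1.5e-05) and 0.32 ± 0.0220 within the family (adjusted p = 9.5e-08). In the other 4 gates its mean lay between 17.7 and 19.1.

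Rpl13a, a large subunit protein also known for silencing inflammatory mRNAs once released from the ribosome, was the lowest. It stood at 2.81, 2.61, 3.33 and 3.42 UMIs per 10000 in the Foxp3 gate and at 3.95, 3.74, 4.44 and 4.58 in the rest. Its matched log2 fold change was -0.38 ± 0.0554 with TMM (edgeR adjusted p = 0.00013) and -0.33 ± 0.0544 within the family (adjusted p = 0.00045). Within the family Rpl13a averaged 1.42 ± 0.127 of 1000 UMIs in the Foxp3 gate, 1.42 ± 0.0581 in the Ccr7 gate and 1.79 to 1.96 in the Il17a, Ifng and Gzma gates. Rps25, a small subunit protein that some viral internal ribosome entry sites need, and Rpl8 followed with matched log2 fold changes of -0.29 ± 0.0493 and -0.27 ± 0.0374.

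Rpl39 and Rpl13a were the 2 matched departures of the Foxp3 gate, 1 upward and 1 downward (15% and 7.79% of genes). With doublets kept neither reached a log2 fold change of 0.3, and without library 2 Rpl13a did not; without library 4 Rps27l (0.51) and Rpl31 (-0.30) met the rule as well. In all cells the departures were Rpl13a (-0.35) and Rps27l (0.70), where 7.63% and 17.3% of genes met the rule. Rps27l, a paralog of Rps27 and a known p53 target, stood at 1.64, 1.47, 1.49 and 1.44 UMIs per 10000 against 1.10, 0.922, 0.981 and 1.05 in the rest. Matched, its log2 fold change within the family was 0.36 ± 0.104 (edgeR adjusted p = 0.020), higher in 3 of 4 libraries.

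In the Il17a gate most calls of all cells were not met at matched depth. In all cells 18 members rose and 32 fell (14.4% and 9.72% of all genes), whereas at matched depth none rose and 9 fell (3.46% and 1.76%), 8 of them among the 32. The matched fit also held fewer cells and sums, calls over all genes fell as well, and the median log2 fold change of the members was -0.06 in all cells and -0.08 matched. The 9 were Rpl12, Rpl13, Rplp1, Rps16, Rps18, Rps21, Rps24, Rps27 and Rps29. With library size alone the counts were 10 and 49 in all cells and 2 and 19 matched. Without library 4 only 10 members rose in all cells, and the 9 matched fallers became 4, 4 and 2 without libraries 2, 3 and 4. Rplp1 was at 37.1, 36.8, 37.5 and 39.6 UMIs per 10000 in the gate and at 47.9, 47.1, 49.0 and 51.7 in the rest, without overlap. Its matched log2 fold change was -0.28 ± 0.0496 (edgeR adjusted p = 0.0019).

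In all cells, 6 members departed from the family in the Il17a gate, 4 upward and 2 downward (14.1% and 5.12% of genes). Among them were Rps27l (0.80), Rpl28 (0.39) and Rplp0 (0.34) upward, and Rps27rt (-0.42) and Rps27 (-0.36) downward. None departed at matched depth (5.17% and 1.09% of genes), where Rps27l stood at 0.17 ± 0.107 and Rpl28 at 0.21 ± 0.0341. Rps27l made up 0.793, 0.639, 0.660 and 0.901 of 1000 family UMIs in the gate against 0.485, 0.412, 0.424 and 0.430 in the rest. Rps27 made up 15.3, 18.4, 16.95 and 18.3 against 20.3, 22.5, 21.6 and 24.01. Neither gene's values overlapped between the gate and the rest.

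These 6 members also had the largest shifts with depth among rest cells alone. Between rest cells of at least 6000 UMIs and those of 3000 to 4000, the log2 difference within the family was 0.95 ± 0.0422 for Rps27l (SD, n = 4), 0.44 ± 0.0872 for Rpl28 and 0.41 ± 0.0304 for Rplp0. It was -0.51 ± 0.116 for Rps27rt and -0.47 ± 0.0465 for Rps27. By absolute size the 6 members held ranks 1 to 6 of 83, and Rps26 (0.40), Rps2 (0.38) and Rpl31 (0.38) came next. Every library gave the same sign for the 6. Cells with at least 2 cycling UMIs averaged 5.36% of the rest and 8.55% to 9.70% of the Ifng, Gzma and Foxp3 gates. They averaged 12.4% of the Ccr7 gate and 21.6% of the Il17a gate, the highest share. With those cells left out of all gates, an alternative added after seeing the data, none of the 6 met the rule in all cells: Rps27l stood at 0.28 ± 0.121 (edgeR adjusted p = 0.16) and Rpl28 at 0.28 ± 0.0279 (adjusted p = 4.5e-08). Rpl36al (0.39) and Rpl24 (0.32) met it instead. Depth and cycling move together here, and their separate parts were not tested.

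**Figure D4:**
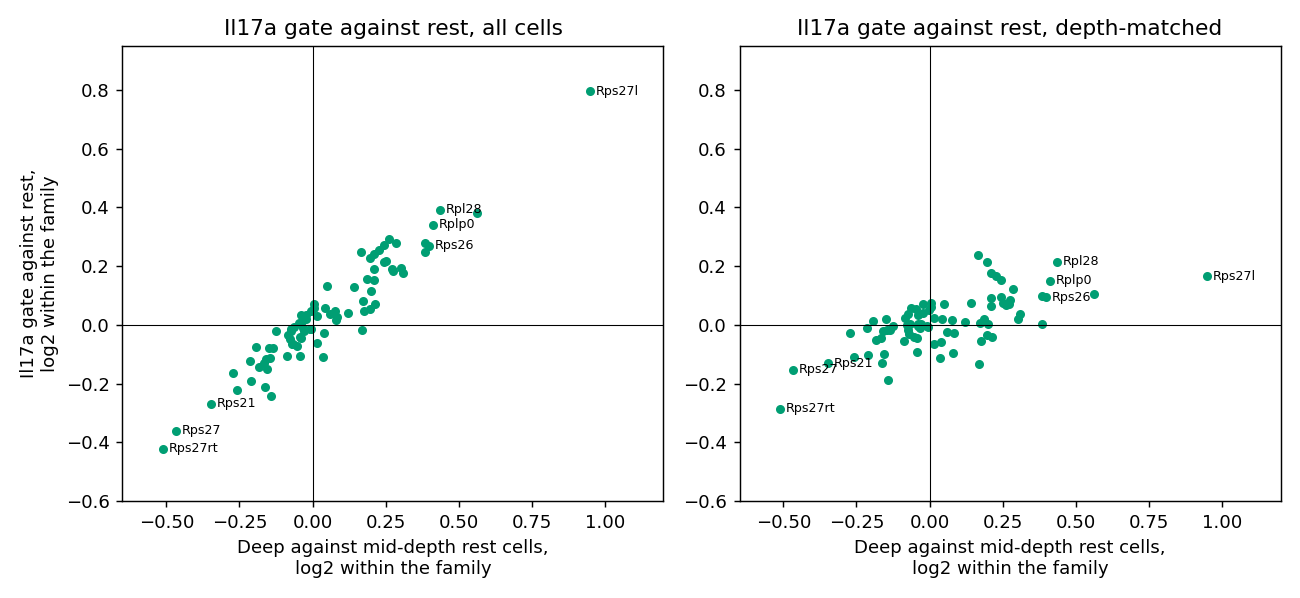
Each point is 1 of 83 ribosomal protein genes: horizontal axis, log2 difference within the family between deep (at least 6000 UMIs) and mid-depth (3000 to 4000 UMIs) rest cells; vertical axis, log2 fold change within the family in the Il17a gate against the rest, in all cells (left) and depth-matched (right). Rps27l lies at 0.80 on the left and at 0.17 on the right.

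Most departures in the Ccr7 and Foxp3 gates were still met without cycling cells: 5 of 6 in the Ccr7 gate and 2 of 2 in the Foxp3 gate in all cells, and 3 of 4 and 2 of 2 matched. The exceptions in the Ccr7 gate were Rplp0 in all cells, at 0.29, and Rps19bp1 matched, at -0.76 and lower in 3 of 4 libraries. Rps27l moved most there, from 0.03 to -0.61 within the family in all cells. Without cycling cells Rps19 stood at 0.49 ± 0.0302 and Rpl38 at -0.31 ± 0.0247 within the family in the Ccr7 gate. Rpl13a stood at -0.34 ± 0.0552 and Rps27l at 0.64 ± 0.0876 in the Foxp3 gate.

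**Figure D5:**
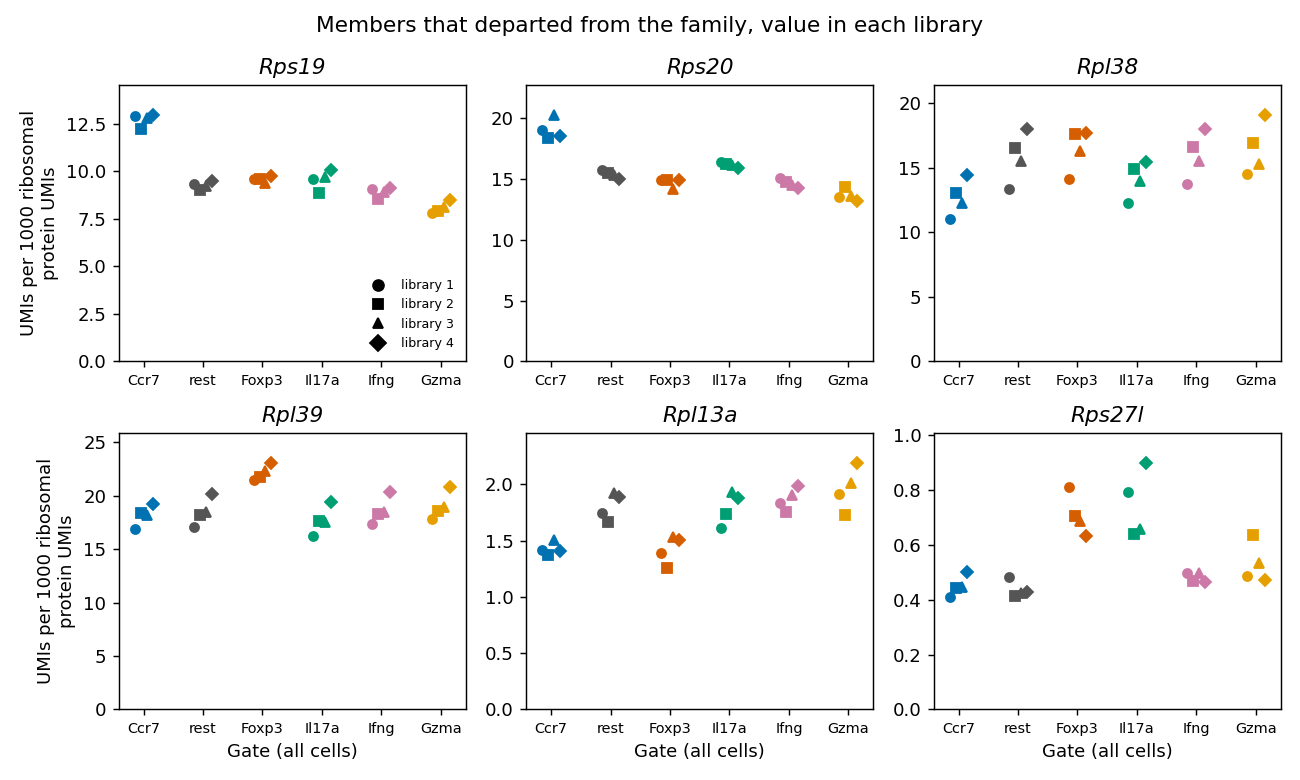
UMIs per 1000 ribosomal protein UMIs (vertical axes, from 0) of 6 members by gate in all cells, 1 symbol per library. Rps19 and Rps20 are highest in the Ccr7 gate, Rpl39 is highest in the Foxp3 gate, Rpl13a is lowest in the Ccr7 and Foxp3 gates, and Rps27l is highest in the Foxp3 and Il17a gates.

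The paralogs did not move as 1 group. Rpl22l1, the paralog of Rpl22, followed the family: in the Ccr7 gate it stood at 10.5, 8.83, 10.4 and 9.86 UMIs per 10000 against 7.59, 7.09, 7.13 and 7.42 in the rest, with a matched log2 fold change of 0.60 ± 0.0648, beside 0.46 ± 0.0470 for Rpl22. Rpl36al, which encodes nearly the same protein as Rpl36a, had 0.37 ± 0.103. Rpl7l1 and Rps19bp1, the latter a partner of Rps19 and of the deacetylase Sirt1, were the 2 members not called in the Ccr7 gate in all cells (log2 fold changes of 0.06 ± 0.113 and 0.08 ± 0.186).

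Some members share sequence with other counted features. A stretch of at least 200 bases at 97% identity or more to another feature was found for 19 members, and for 8 of them the copy's own UMI count was at least 1% as large as the member's. The count of Gm9493 was 8.72% as large as that of Rps7, and that of Rpl27-ps3 4.59% as large as that of Rpl27, so small differences of these genes are uncertain. Rps27rt matched Rps27 at 100% identity and had 10946 UMIs beside 462796, and its values may partly be those of Rps27. Rpl13a matched Gm45713 at 100% identity over 622 bases, and that feature had 1 UMI beside 38501. Whether this match lowered the count of Rpl13a was not tested.

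Other genes of the translation machinery were read from the same fits. Of 27 translation factors and other TOP mRNAs, 24 rose and none fell in the Ccr7 gate in all cells and 17 rose and none fell matched, with median log2 fold changes of 0.35 and 0.30. Eef1b2, an elongation factor subunit, stood at 1387 ± 80.1 UMIs per 1e+06 in the Ccr7 gate and 977 ± 22.3 in the rest (matched log2 fold change 0.65 ± 0.0586). Npm1, a nucleolar chaperone, stood at 1057 ± 63.3 and 736 ± 23.5 (matched 0.52 ± 0.0615). In the Gzma gate 6 fell in all cells and 7 matched, and in the Ifng gate 3 and 13, with none rising. In the Foxp3 gate 3 rose and 4 fell in all cells, and 1 rose and 6 fell matched. In the Il17a gate 10 rose and 3 fell in all cells, and none was called matched. Over all genes, matched, 5.34% fell in the Gzma gate, 6.46% in the Ifng gate and 12.5% in the Foxp3 gate, and 5.8% rose in the Ccr7 gate. In all cells 12.7% of all genes rose in the Ccr7 gate, and 6.87% and 4.28% fell in the Gzma and Ifng gates. In the Il17a gate 14.4% rose and 9.72% fell, and in the Foxp3 gate 17.6% and 15%. The Foxp3 counts of this list in all cells did not exceed those shares.

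Of 22 ribosome biogenesis genes, 12 rose and none fell in the Ccr7 gate in all cells, where 12.7% and 10.1% of all genes did. Matched, 3 of 21 tested rose there, among them the nucleolar genes Mybbp1a (0.65 ± 0.176) and Ncl (0.34 ± 0.0757), where 5.8% of all genes did. In the Foxp3 gate 1 rose and 3 fell of 22 in all cells, where 17.6% and 15% of all genes did. Matched, none rose and 9 fell of 21 there, beside 12.5% of all genes that fell. Among 18 genes of TOR and translation control, 6 rose and 5 fell in the Foxp3 gate in all cells. Of all genes 17.6% and 15% did. Matched, 6 rose and 1 fell (15.5% and 12.5% of all genes). Named by the smallest adjusted p were Sesn1, an inhibitor of TOR complex activation, with a matched log2 fold change of 1.31 ± 0.146, and Eif4ebp1, a translation repressor under TOR control, with 1.28 ± 0.154. Sesn1 also rose in the Ccr7 gate (1.04 ± 0.204). Among the genes for the 78 mitochondrial ribosomal proteins, 12 rose and none fell in the Ccr7 gate in all cells (median log2 fold change 0.13; 12.7% of all genes rose). Matched, 1 rose and 1 fell of 73 tested (median 0.01; 5.8% and 3.31% of all genes).

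Most of the 13 mitochondrially encoded genes were called in the direction of the family in 3 gates. In the Ccr7 gate 10 rose and none fell when matched (median log2 fold change 0.27), in the Gzma gate 12 fell and in the Ifng gate 13 fell, with none rising (medians -0.18 and -0.17). Over all genes 5.8% rose in the Ccr7 gate, and 5.34% and 6.46% fell in the Gzma and Ifng gates. In the Il17a gate none was called matched. Matched Foxp3 cells had 5 fallers and no riser (median -0.09), beside 12.5% of all genes that fell. The median of the ribosomal protein genes was -0.07 in that fit. The mitochondrial share of UMIs was 2.497% ± 0.168 in the Ccr7 gate, 2.39% ± 0.130 in the rest, 2.40% ± 0.117 in the Il17a gate, 2.17% ± 0.101 in the Foxp3 gate and 2.11% ± 0.0924 and 2.11% ± 0.121 in the Gzma and Ifng gates (n = 4). The part of RNA quality in the ribosomal differences was not tested.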

How the data were processed

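UMI counts per gene and cell were deposited by the authors, 1 matrix per library, made with Cell Ranger 3.0.2 on mm10 per the submitters' processing notes. Everything else was computed from these counts. Barcodes with at least 1000 UMIs, 500 genes and at most 10% mitochondrial UMIs were kept (22534 of 22904), and the highest Scrublet scores (scanpy 1.11.5), 0.8% per 1000 barcodes, were removed as doublets (1033). Library totals ran from 23918884 to 28783972 UMIs.

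UMIs were summed per library and gate, since cells are not replicates. edgeR 4.0.16 quasi-likelihood tests (TMM, filterByExpr, library as block) used 24 sums in all cells (15 residual degrees of freedom) and 8 sums per gate at matched depth (3), with Benjamini-Hochberg adjustment at 0.05 over all genes tested; the scripts were tested on simulated counts. The library number is a true block because all gates come from the same 4 libraries. A second scale used summed family UMIs as library size. SE is the log2 fold change divided by the root of its F. Shares were compared within libraries. Levels per 10000 UMIs are means or single libraries.

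Named members were the 3 highest and 3 lowest per contrast called in both fits and moving 1 way in all 4 libraries, every departure, the 5 most and fewest counted, and all paralogs; of other lists, up to 4 genes per contrast by smallest adjusted p in all cells. Examples from these lists and the comparison gene Rpl22 were picked from them after their values were seen. Members and lists were chosen with earlier results of these data known. Gene positions come from GENCODE M21, copies from blastn 2.17.0 and sequences from RefSeq. Alternatives included DESeq2 1.42.0, other filters and gates, and leaving out each library. Some results for 2 genes are not reported here.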

Additional observations from a re-analysis of the deposited data

Results flagged for a closer look

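Of 94 sets of 4 library values of members, 3 held a library far from the others by Dixon's criterion, which chance gives in about 1 of 20 sets. All 3 were shares of the family in the Foxp3 gate. Rps19bp1 was low in library 3, at 0.0939 of 1000 family UMIs against 0.138 to 0.146 in the others. Rps20 was low in the same library, at 14.2 against 14.9 in the others. Rps27rt was high in library 1, at 0.491 against 0.457 to 0.461. The 9 left-out names holding -ps together had 12261 UMIs in the cells analysed, a count 0.0567% as large as the family's, which is above the limit of a count of 0.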

How the results depend on the processing

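Of 533 recomputed values of share differences, member counts and the 6 matched departures, 78 moved beyond the replicate spread or by more than 1.5 times. The cause was not tested. No share difference or matched departure changed sign, and member counts cannot. Outside the 533 values, Rpl13a in the Ccr7 gate, all cells, went from 0.15 to -0.01 with library size alone. Rps27l there went from 0.03 to -0.61 within the family without cycling cells. In the thinned setting, gate calls alone used counts drawn down to 2000 UMIs per cell. Cells below 2000 UMIs were left out there, and shares came from the full counts. Differences in share from the rest moved in all cells in that setting (Ccr7 8.03 percentage points, Il17a -1.75, Gzma -3.18), with cells meeting exactly 1 gate (Ccr7 7.84, Il17a -1.19, Ifng -1.73) and without cycling cells (Ccr7 7.66, Il17a -1.58). At matched depth the same settings gave 8.42, 8.42 and 7.87 in the Ccr7 gate; for the Il17a gate exactly 1 gate gave -0.783, no cycling cells -1.69, T cells only by markers -2.17 and matching outside the family -0.644, and for the Ifng gate exactly 1 gate gave -1.82.

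Counts of members moved as follows. In the Foxp3 gate, all cells, risers were 2 thinned, 8 with DESeq2 and 3 with no expression filter, and fallers 15 with exactly 1 gate and 49 with library size alone. Matched, risers were 2 in each of 5 settings (thinned, exactly 1 gate, library size alone, DESeq2, no cycling cells), and fallers 17 with exactly 1 gate, 42 with library size alone and 43 without cycling cells. In the Il17a gate, all cells, risers were 10 with library size alone, 7 with no filter and 9 without cycling cells, and fallers 10 with exactly 1 gate, 49 with library size alone and 10 without cycling cells. Matched, risers were 2 with exactly 1 gate, 2 with library size alone and 1 without cycling cells, and fallers 2 thinned, 4 with exactly 1 gate, 19 with library size alone, 17 without cycling cells and 1 with matching outside the family. In the Ifng gate, all cells, fallers were 13 with exactly 1 gate.

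Without the library as replicate block, risers and fallers in all cells were 3 and 14 in the Foxp3 gate and 11 and 16 in the Il17a gate, with 5 fallers in the Ifng gate and 40 in the Gzma gate. At matched depth, risers were 1 in the Foxp3 gate, and fallers 1 in the Il17a gate, 7 in the Ifng gate and 42 in the Gzma gate. The block moved no other count by over 1.5 times.

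With a log2 threshold of 0.5, departures were 1 in the Foxp3 gate, 0 in the Ccr7 gate and 1 in the Il17a gate in all cells, and 0 in the Foxp3 gate matched. Il17a departures without cycling cells were 2 in all cells and 1 matched. T cells only by markers gave 1 in the Gzma gate, all cells, and keeping doublets gave 0 in the Foxp3 gate, matched.

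Leaving out 1 library at a time gave 19 to 28 Foxp3 fallers, 10 to 17 Il17a risers, 37 to 60 Ifng fallers and 0 to 1 Gzma departures in all cells. Matched, it gave 1 to 8 Foxp3 risers, 1 to 4 Foxp3 departures, 2 to 6 Il17a fallers and 0 to 1 Gzma departures. Rps19bp1, with 2995 UMIs over 24 library and gate sums, is the tested member whose values depth limits most.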
